A study of Mus musculus with 12 samples.

Results

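Fatty acid oxidation and ketogenesis genes were followed in the liver transcriptome of mice given zinc, dexamethasone or both. The set held 37 genes, a list of symbols drawn up with earlier results of these data known but with no threshold on a measured value, and each of the 37 was found once among the 54838 gene rows of the count table. They comprised 5 genes for the entry of fatty acids into oxidation, 10 of mitochondrial beta-oxidation, 3 of the electron transfer flavoprotein, 8 of peroxisomal oxidation, 5 acyl-CoA thioesterases and 5 other targets or regulators of PPAR-alpha. Of ketone body metabolism the set held 1 gene, Bdh1, so its name covers ketogenesis by that single member. RNA of 12 liver samples from C57BL/6J mice, 3 in each of 4 groups, was sequenced. The water-PBS group, the control, drank plain water for 7 days and was injected with PBS. The zinc-PBS group drank water with 25 mM ZnSO4 for those 7 days before the PBS injection. The water-Dex and zinc-Dex groups drank plain or zinc water and were injected with 200 µg dexamethasone (Dex), a synthetic glucocorticoid that activates the glucocorticoid receptor. Every liver was taken 2 h after the injection. Per the study's methods the C57BL/6J mice were purchased females of 8 to 14 weeks with free access to food, and every mouse received an injection.

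Fatty acids are activated to acyl-CoA, carried into mitochondria as carnitine esters and shortened there in repeated cycles of enzyme steps, while very long and branched chains are first shortened in peroxisomes. In the fasted liver the acetyl-CoA that results is turned into ketone bodies for other organs. PPAR-alpha, a nuclear receptor that binds fatty acids, drives many of these genes as a partner of the retinoid X receptor, and glucocorticoids and glucagon act alongside it during fasting.

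Library totals lay between 9091152 and 12303527 counts. The first principal component set the 6 Dex-injected livers apart from the 6 that had received PBS and held 85.4% of the variance of the most variable genes, and zinc-PBS replicate 1 stood apart on the second (4.7%). The check genes moved with the treatments, since all 5 glucocorticoid targets tested rose with Dex in mice on water and on zinc, and the metallothionein Mt2 rose 41.6-fold with zinc in PBS-injected mice. Mt2 was not specific to zinc, since it rose with Dex as well. Its mean normalized count was 27.8 in water-PBS, 1168.7 in zinc-PBS, 2397.5 in water-Dex and 3871.7 in zinc-Dex. The 8 hepatocyte markers summed to 1256000 to 1489000 normalized counts in the 6 PBS-injected and 1681000 to 1854000 in the 6 Dex-injected livers. Among these markers was Tat, itself 1 of the 5 glucocorticoid targets. Mean Tat was 9502 in water-PBS, 6914 in zinc-PBS, 62751 in water-Dex and 72936 in zinc-Dex. The 3 kidney markers were at 0 in every library, and the adipocyte and muscle lists, whose tissues also oxidize fatty acids, summed to at most 5.43 and 9.93. The 4 gut epithelium markers summed to 519 to 787 and the 4 pancreas markers to 61.9 to 134, with 3 of the pancreas markers at 0 in every library. The summed endothelium markers were higher with Dex, at 2566 to 2826 in the 6 Dex-injected against 1780 to 1990 in the 6 PBS-injected livers. The 4 lymphocyte markers were lower with Dex, at 8.12 to 15.8 against 28.6 to 33.6 on water and 17.8 to 20.6 against 21.9 to 38.8 on zinc. Summed stellate cell markers were higher with Dex, at 3580 to 3638 against 3358 to 3533 on water and 3510 to 4219 against 3195 to 3247 on zinc. Red blood cell markers were higher with Dex on zinc, at 1232 to 1359 against 657 to 829, and overlapped on water. The part of these markers in the changes of the oxidation genes was not tested, and in whole liver a change in the number of cells of a type cannot be told apart from a change in their RNA.

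A normalized count is a read count divided by the library's DESeq2 size factor. All 37 genes carried enough reads to be tested in each comparison, from Acot2 with a mean of 67.5 normalized counts over the 12 livers to Fabp1 with 33649. Together they took 1.10% to 1.54% of a library's counts. To compare genes with each other, levels were set per kilobase of annotated exon, which understates genes whose annotation includes long or rarely used exons. On that scale Fabp1, the fatty acid binding protein of the hepatocyte cytosol, led in every group, with 67590 ± 19750 normalized counts per kb in water-PBS (SD, n = 3). Acaa2, the thiolase of the last mitochondrial step, came next in every group and stood at 5137 ± 457 per kb in water-PBS. Acaa1b, Crot, Ehhadh and Etfa followed between 2056 and 2668 per kb. Acot2 was lowest in every group, at 33.4 ± 5.39 per kb in water-PBS. Of the 36 pairs of neighbours in this order, 25 to 27 per group had overlapping livers, such as Crot and Ehhadh with 2582 ± 223 and 2323 ± 573 per kb in water-PBS.

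**Figure D1:**
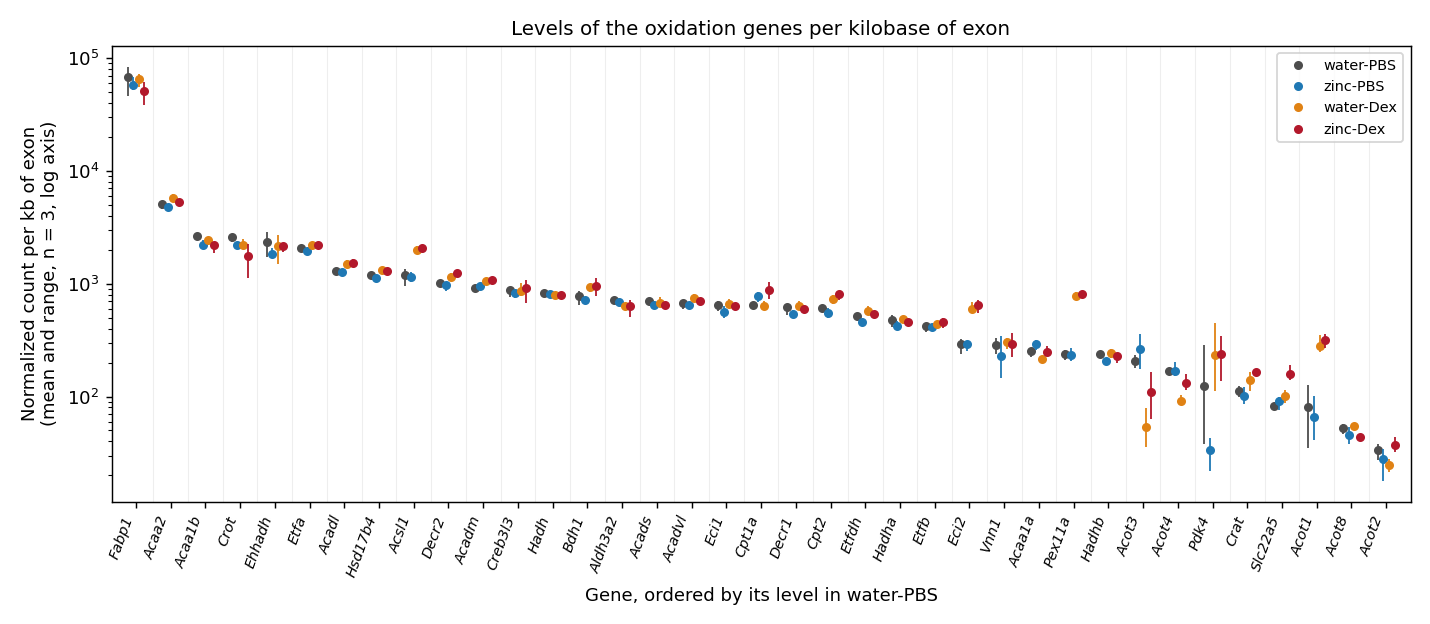
Level of each of the 37 oxidation genes per kilobase of exon on a log axis, ordered by the water-PBS mean. Points are group means of 3 livers and lines run from the lowest to the highest liver. Fabp1 lies far above the rest, and Pex11a, Acot1, Eci2 and Acsl1 sit higher in both Dex-injected groups.

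Within a group the genes varied little, with median coefficients of variation between 9.25% and 9.97% in the 4 groups. Pdk4 varied most in water-PBS (113%) and water-Dex (80.5%), Acot1 most in zinc-PBS (47.4%) and Acot3 most in zinc-Dex (46.9%). Within a group many genes were highest or lowest in the same liver. Water-Dex replicate 2 held the highest level of its group for 31 of the 37 genes, zinc-PBS replicate 2 held the lowest for 29 and water-PBS replicate 3 the lowest for 28. Several results rested on such livers.

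**Figure D2:**
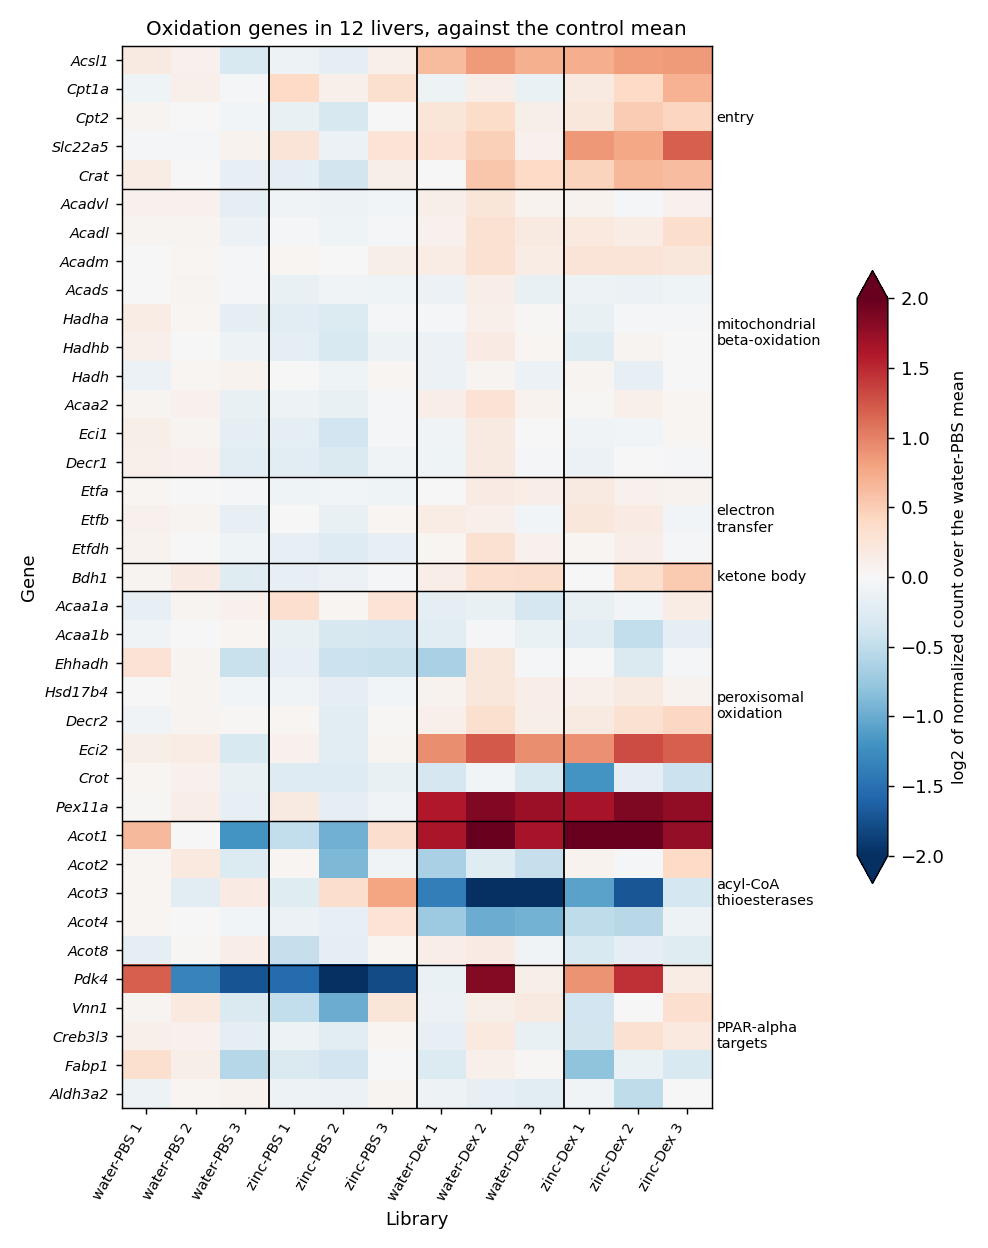
Each row is an oxidation gene, each column a liver, and the color is the log2 ratio of the normalized count to the mean of the 3 water-PBS livers, with the scale ending at -2 and 2. Most rows stay pale throughout, while Acsl1, Eci2, Pex11a and Acot1 are red in the 6 Dex-injected livers, Acot3 and Acot4 are blue there but palest in zinc-Dex replicate 3, and Pdk4 is red in water-PBS replicate 1 and blue in the other 5 PBS-injected livers.

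The first question was which of these genes a Dex injection had changed after 2 h. A gene was called when its adjusted p was under 0.05 and its log2 fold change above 0.8 in size. In mice on plain water 3 of the 37 genes were called higher (Eci2, Pex11a and Acot1) and 2 lower (Acot3 and Acot4). Of all 14221 genes tested, 4.89% were called higher and 4.79% lower, beside 8.11% and 5.41% of the oxidation genes. With the adjusted p alone, 5 genes were higher, with Acsl1 and Acadm added, and 2 were lower. The background by that rule was 11.7% higher and 9.91% lower over all genes, and 16.3% and 10.7% among genes at least as abundant as Acot2, against 13.5% and 5.41% of the oxidation genes. The median log2 fold change of the 37 was 0.07, beside -0.0112 over all genes tested. In mice on water the shares of oxidation genes that changed thus lay near the background, and the result is about single genes.

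In mice on zinc 6 genes were called higher (Acsl1, Slc22a5, Eci2, Pex11a, Acot1 and Pdk4) and 1 lower (Acot3), beside 5.0% higher and 4.68% lower among all 15657 genes tested. With the adjusted p alone 15 of the 37 genes (40.5%) were higher and 2 (5.41%) lower, beside 11% and 9.08% over all genes and 16.3% and 10.6% among genes at least as abundant as Acot2. The 9 genes higher by that rule but under the fold threshold were Cpt2, Crat, Acadl, Acadm, Etfa, Etfdh, Bdh1, Hsd17b4 and Decr2. Their log2 fold changes lay between 0.19 and 0.71. The median over the 37 genes was 0.17, beside -0.0107 over all genes tested. The count of 17 at an adjusted p under 0.05 rested in part on single livers, since it was 10 without zinc-PBS replicate 2 and 10 without zinc-Dex replicate 2. The 2 Dex comparisons share no liver, and their difference was tested as an interaction.

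**Figure D3:**
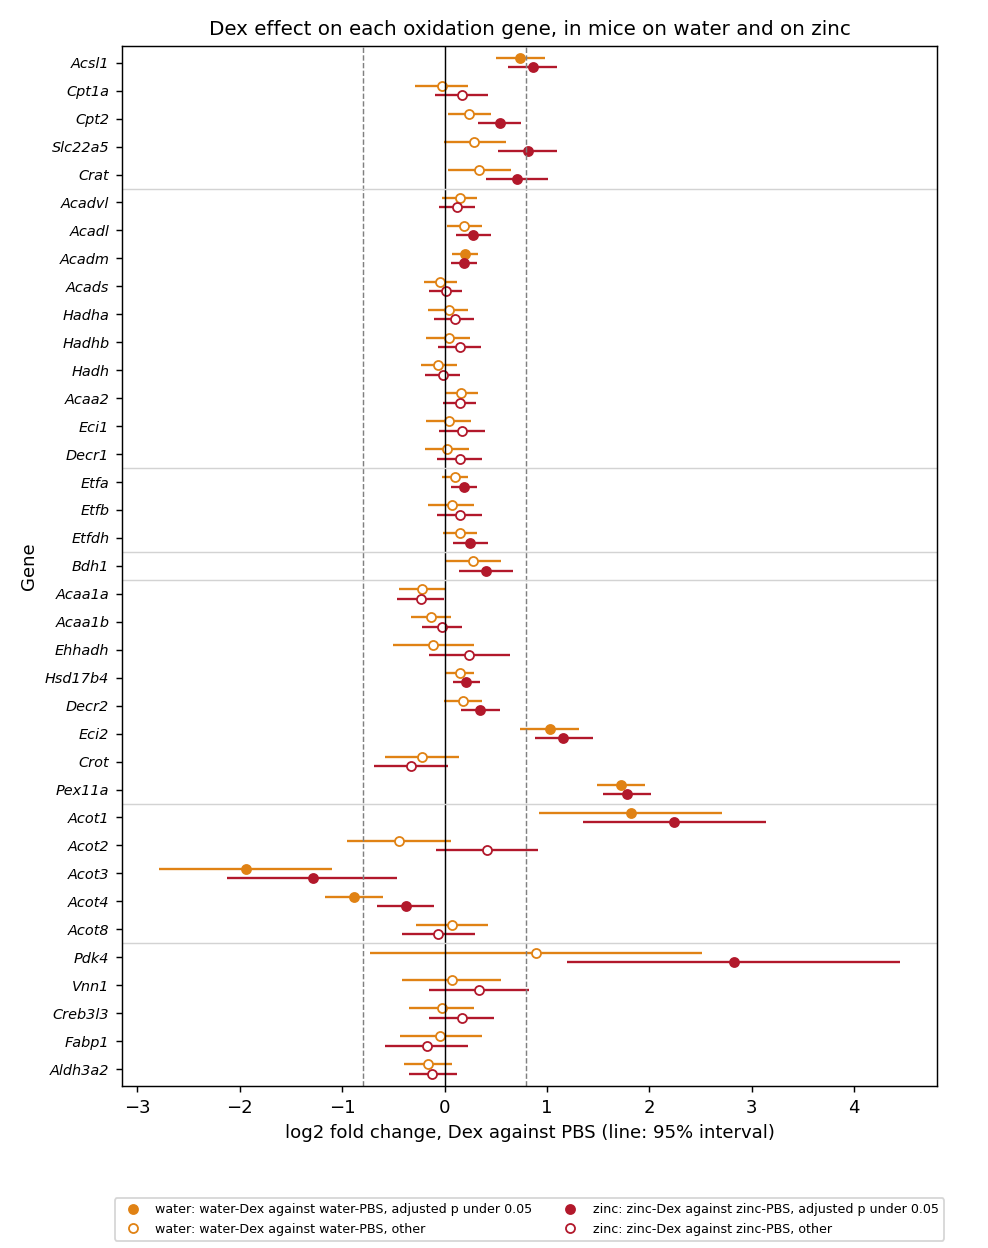
Log2 fold change with Dex of each oxidation gene in mice on water (orange) and on zinc (red), with 95% intervals as lines, filled points at an adjusted p under 0.05 and dashed lines at the fold threshold of 0.8. Most points lie between the dashed lines, and the genes outside the dashed lines are Eci2, Pex11a, Acot1, Acot3, Acot4, Pdk4, Acsl1 and Slc22a5.

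Of the 5 genes for the entry of fatty acids into oxidation, 1 rose with Dex in mice on water and 4 in mice on zinc. Acsl1, which activates long-chain fatty acids to acyl-CoA (chr8:46471037-46536051, plus strand, GRCm38), had normalized counts of 14033, 13142 and 10082 in water-PBS and 11573, 10859 and 13307 in zinc-PBS, and with Dex 19358, 22463 and 20274 on water and 20527, 22098 and 22401 on zinc. The 6 Dex-injected livers all lay above the 6 PBS-injected ones. Its log2 fold change with Dex was 0.74 on water (95% interval 0.50 to 0.98, DESeq2 adjusted p = 4.21e-08), which passed the adjusted p but not the fold threshold, and 0.86 on zinc (0.62 to 1.10, DESeq2 adjusted p = 6.4e-11). Without water-PBS replicate 1 the effect on water was 0.83 and passed the fold threshold too. Slc22a5, the carnitine importer of the plasma membrane (chr11:53864542-53891660, minus strand), had 244, 246 and 266 in water-PBS and 302, 233 and 304 in zinc-PBS, and with Dex 308, 349 and 268 on water and 461, 432 and 579 on zinc. The zinc-Dex livers stood clear of the other 3 groups, and the water-Dex livers lay just above the water-PBS livers. The effect of Dex was 0.29 on water (-0.01 to 0.60, DESeq2 adjusted p = 0.183) and 0.81 on zinc (0.52 to 1.10, DESeq2 adjusted p = 1.18e-06). It fell under the fold threshold without zinc-PBS replicate 2 (0.70) or zinc-Dex replicate 3 (0.67), both with an adjusted p still under 0.05. Of the 75-base windows of its transcripts, 17.1% also occurred in another gene, Slc22a21, so reads from those stretches could not be assigned to it.

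Cpt2, the inner membrane carnitine palmitoyltransferase, and Crat, which exchanges short acyl groups with carnitine, showed smaller differences. Cpt2 changed by 0.24 on water (0.03 to 0.45, DESeq2 adjusted p = 0.0927) and rose by 0.54 on zinc (0.33 to 0.75, DESeq2 adjusted p = 7.67e-06). Crat changed by 0.34 on water (0.03 to 0.65, DESeq2 adjusted p = 0.11) and rose by 0.71 on zinc (0.40 to 1.01, DESeq2 adjusted p = 7.44e-05). Both rises on zinc kept an adjusted p under 0.05 in all 11 alternative analyses. Without water-Dex replicate 1 Crat passed the adjusted p on water as well, at 0.48, and without zinc-PBS replicate 3 its rise on zinc passed the fold threshold, at 0.85. Cpt1a, the outer membrane transferase that limits the rate of entry, did not pass in either Dex comparison, at -0.03 on water (-0.29 to 0.23) and 0.17 on zinc (-0.09 to 0.42).

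The 10 genes of mitochondrial beta-oxidation showed small differences with Dex. None was called in either Dex comparison by DESeq2 or by edgeR, and 2 had an unadjusted DESeq2 p under 0.05 in each. Acaa2, the most abundant of them, had 8082, 8285 and 6997 normalized counts in water-PBS and 7245, 7037 and 7559 in zinc-PBS, and with Dex 8559, 9482 and 8146 on water and 7891, 8341 and 7969 on zinc. On water the groups overlapped and on zinc they did not, with log2 fold changes of 0.16 (SE 0.085) and 0.15 (SE 0.085) that did not pass. Acadm, the medium-chain acyl-CoA dehydrogenase, rose slightly with Dex, by 0.20 on water (0.07 to 0.33, DESeq2 adjusted p = 0.0171) and 0.19 on zinc (0.06 to 0.32, DESeq2 adjusted p = 0.0239). Acadl, the long-chain enzyme, rose on zinc by 0.28 (0.11 to 0.45, DESeq2 adjusted p = 0.00863) and stood at 0.19 on water (0.02 to 0.37, DESeq2 adjusted p = 0.0981). Small rises of this size depended on single livers. Acadm no longer passed on water without any 1 of the 3 water-PBS livers or without water-Dex replicate 2 (adjusted p 0.051 to 0.17), nor on zinc without zinc-PBS replicate 1 or 2 or any zinc-Dex liver (0.073 to 0.161), edgeR gave it 0.0536 and 0.0649, and Acadl did not pass on zinc without zinc-PBS replicate 2 (0.0676) or zinc-Dex replicate 3 (0.0958). The dehydrogenases Acadvl and Acads, the trifunctional protein subunits Hadha and Hadhb, the hydroxyacyl-CoA dehydrogenase Hadh, and Eci1 and Decr1, which prepare unsaturated chains, did not pass in either comparison, with log2 fold changes between -0.06 and 0.17. Intervals of these 7 genes reached from -0.23 to 0.39, so rises of the size seen for Acsl1 lay outside them.

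The electron transfer flavoprotein passes electrons from the acyl-CoA dehydrogenases to the respiratory chain. Its dehydrogenase Etfdh was the most abundant of its 3 genes by normalized count, with 4105, 3915 and 3678 in water-PBS and 3488, 3252 and 3468 in zinc-PBS, and with Dex 3997, 4796 and 4145 on water and 4024, 4275 and 3844 on zinc. The zinc-PBS livers were below all others. Etfdh rose with Dex on zinc by 0.25 (0.08 to 0.42, DESeq2 adjusted p = 0.0234) and the subunit gene Etfa by 0.19 (0.06 to 0.32, DESeq2 adjusted p = 0.0249), while on water they stood at 0.15 and 0.10 and did not pass. Etfdh no longer passed on zinc without zinc-PBS replicate 2 or 3 or zinc-Dex replicate 1 or 2 (adjusted p 0.0599 to 0.138), and Etfa did not without any 1 of the 6 livers (0.0573 to 0.158). The other subunit gene, Etfb, shared 39.6% of its windows with an overlapping gene on its own strand, Gm45233, and stood at 0.07 on water and 0.15 on zinc.

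Bdh1 (chr16:31422280-31458901, plus strand), which interconverts the ketone bodies acetoacetate and 3-hydroxybutyrate in mitochondria, had 3127, 3367 and 2537 normalized counts in water-PBS and 2698, 2769 and 2938 in zinc-PBS. With Dex it had 3309, 3805 and 3854 on water and 3020, 3768 and 4332 on zinc. On water 1 Dex-injected liver lay below the highest water-PBS liver, and on zinc all zinc-Dex livers lay above the zinc-PBS livers. The log2 fold change was 0.28 on water (0.01 to 0.55, DESeq2 adjusted p = 0.136) and 0.40 on zinc (0.14 to 0.67, DESeq2 adjusted p = 0.0185). On zinc it did not pass without zinc-PBS replicate 1 or 2 or zinc-Dex replicate 2 or 3, with log2 fold changes of 0.28 to 0.40 and adjusted p of 0.0633 to 0.171.

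Among the 8 peroxisomal genes, Pex11a and Eci2 rose strongly with Dex whatever the mice drank. Pex11a, a membrane protein that takes part in peroxisome growth and division, gave the clearest separation of all 37 genes. Its annotated start lies on chromosome 7, and the sequence around it is shown because no other gene of the set had so small an adjusted p. The window covers 200 bases before to 30 bases after the RefSeq start on GRCm38.p6, read on the gene's strand at chr7:79743102-79743331 (minus strand), and would carry capitals at any exact copy of the nuclear receptor half-site AGGTCA or the glucocorticoid receptor half-site AGAACA on either strand.
Pex11a: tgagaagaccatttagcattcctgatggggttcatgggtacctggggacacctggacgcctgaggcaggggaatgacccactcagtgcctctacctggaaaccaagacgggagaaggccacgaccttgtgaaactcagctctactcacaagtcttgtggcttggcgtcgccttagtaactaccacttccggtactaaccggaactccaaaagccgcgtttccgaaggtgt
Neither half-site was present in it. Pex11a had 763, 829 and 670 normalized counts in water-PBS and 853, 660 and 720 in zinc-PBS, and with Dex 2288, 2712 and 2473 on water and 2357, 2759 and 2569 on zinc. The 6 livers of Dex-injected mice lay between 2288 and 2759, far above the 660 to 853 of the PBS-injected mice. Its fold change was 3.30 on water (log2 1.72, SE 0.119, DESeq2 adjusted p = 4.25e-45) and 3.44 on zinc (log2 1.78, SE 0.119, DESeq2 adjusted p = 1.05e-48).

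Eci2, an isomerase that readies unsaturated acyl chains for the peroxisomal cycle (chr13:34977748-35027096, minus strand), had 1768, 1794 and 1311 in water-PBS and 1724, 1405 and 1694 in zinc-PBS, and with Dex 3078, 3787 and 3080 on water and 3071, 4011 and 3729 on zinc. Groups with and without Dex did not overlap. It rose 2.04-fold on water (log2 1.03, SE 0.146, DESeq2 adjusted p = 5.63e-11) and 2.24-fold on zinc (log2 1.16, SE 0.146, DESeq2 adjusted p = 5.61e-14). Both Pex11a and Eci2 were called in all 11 alternative analyses of each Dex comparison. The enzymes of the peroxisomal cycle itself moved less. Hsd17b4, the D-bifunctional protein, and Decr2, the peroxisomal dienoyl-CoA reductase, rose on zinc by 0.21 (0.08 to 0.35, DESeq2 adjusted p = 0.0146) and 0.35 (0.16 to 0.54, DESeq2 adjusted p = 0.00325) and stood at 0.15 and 0.18 on water without passing. The rise of Hsd17b4 was lost without zinc-PBS replicate 2 (0.18, adjusted p = 0.129) or zinc-Dex replicate 2 (0.18, adjusted p = 0.101), and that of Decr2 held in all 11 alternatives. The L-bifunctional protein Ehhadh and the thiolases Acaa1a and Acaa1b did not pass in either comparison, with log2 fold changes from -0.23 to 0.24. Acaa1a and Acaa1b shared 12.6% and 32.3% of their windows with other genes, among them each other. Crot, the carnitine octanoyltransferase that exports shortened chains, had 14535, 15020 and 12715 in water-PBS and 11809, 11848 and 12693 in zinc-PBS, and with Dex 11146, 13639 and 11467 on water and 6177, 12305 and 10435 on zinc. Zinc-Dex replicate 1 stood far below the other 11 livers. The log2 fold changes of -0.22 on water and -0.33 on zinc did not pass. Leaving out 1 liver each, the value on zinc ran from -0.54 (DESeq2 adjusted p = 0.0144, without zinc-Dex replicate 2) to -0.09. The highest DESeq2 adjusted p among these fits was 0.706.

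The acyl-CoA thioesterases, which split acyl-CoA back into free fatty acid and CoA, moved in opposite directions. Acot2, Acot1, Acot4 and Acot3 lie in this order on the plus strand of chromosome 12 within 72.5 kb. Acot1 acts in the cytosol, Acot2 in mitochondria, and Acot3 and Acot4 in peroxisomes. The sequences around the starts of the 3 genes of the cluster that were called are given in the same way as for Pex11a, since genes this close together took opposite directions. They lie at chr12:84009302-84009531 for Acot1, chr12:84038179-84038408 for Acot4 and chr12:84051944-84052173 for Acot3, all on the plus strand of GRCm38.p6, with the half-sites in capitals.
Acot1: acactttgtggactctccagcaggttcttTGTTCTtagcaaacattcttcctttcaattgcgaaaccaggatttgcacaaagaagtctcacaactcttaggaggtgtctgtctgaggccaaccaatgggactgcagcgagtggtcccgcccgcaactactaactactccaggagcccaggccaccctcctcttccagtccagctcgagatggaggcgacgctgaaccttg
Acot4: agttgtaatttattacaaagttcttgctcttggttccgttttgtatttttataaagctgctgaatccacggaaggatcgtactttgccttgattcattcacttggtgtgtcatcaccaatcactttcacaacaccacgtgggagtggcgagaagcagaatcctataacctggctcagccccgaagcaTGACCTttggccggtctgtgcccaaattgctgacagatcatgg
Acot3: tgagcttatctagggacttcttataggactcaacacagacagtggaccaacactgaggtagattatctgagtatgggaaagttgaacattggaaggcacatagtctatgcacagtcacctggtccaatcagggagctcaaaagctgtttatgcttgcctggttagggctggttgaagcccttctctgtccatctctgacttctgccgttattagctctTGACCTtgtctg
The Acot1 window held TGTTCT, the reverse complement of AGAACA, from 171 bases before the start. The Acot4 and Acot3 windows held TGACCT, the reverse complement of AGGTCA, from 13 bases before the start and from base 19 after it. Aligned pair by pair, the promoters of Acot1, Acot2, Acot3 and Acot4 (300 bases each) were identical at 47.9% to 52.0% of positions.

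Acot1 (chr12:84009490-84018371) had 491, 312 and 136 normalized counts in water-PBS and 222, 161 and 398 in zinc-PBS, and with Dex 973, 1365 and 981 on water and 1241, 1397 and 1054 on zinc. The PBS-injected livers were widely spread, but the highest of them lay well below the lowest Dex-injected one. It rose 3.53-fold on water (log2 1.82, SE 0.457, DESeq2 adjusted p = 0.000683) and 4.73-fold on zinc (log2 2.24, SE 0.457, DESeq2 adjusted p = 1.42e-05). Acot3 (chr12:84052144-84060402) went the other way, with 729, 614 and 797 in water-PBS and 601, 908 and 1239 in zinc-PBS, and with Dex 273, 123 and 160 on water and 341, 217 and 562 on zinc. The groups did not overlap within water or within zinc. Its log2 fold change was -1.94 on water (SE 0.43, DESeq2 adjusted p = 7.66e-05) and -1.29 on zinc (SE 0.427, DESeq2 adjusted p = 0.016). The fall on water was called in all 11 alternatives. The fall on zinc did not pass without zinc-PBS replicate 2 or 3 or zinc-Dex replicate 1 or 2, where the log2 fold change was -1.30, -1.01, -1.23 and -1.02 and the adjusted p 0.0611 to 0.136.

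Acot4 (chr12:84038379-84048601) had 1156, 1136 and 1089 in water-PBS and 1037, 1010 and 1360 in zinc-PBS, and with Dex 682, 567 and 585 on water and 792, 769 and 1054 on zinc. On water the 3 Dex-injected livers lay far below the controls, while on zinc zinc-Dex replicate 3 reached into their range. Its log2 fold change was -0.88 on water (SE 0.146, DESeq2 adjusted p = 3.32e-08) and -0.38 on zinc (SE 0.145, DESeq2 adjusted p = 0.0443), the latter under the fold threshold and not past the adjusted p without zinc-PBS replicate 3, zinc-Dex replicate 1 or zinc-Dex replicate 2 (0.186 to 0.312). Acot2 had log2 fold changes of -0.45 on water (-0.95 to 0.06) and 0.41 on zinc (-0.08 to 0.91), and Acot8, a peroxisomal thioesterase encoded on chromosome 2, of 0.07 and -0.06, and neither gene passed. An antisense gene, 4732463B04Rik, overlaps exons of Acot4 and Acot3 on the minus strand, and whether the counting used strand is not given in the sources used here. Its mean normalized count was 33.7 in water-PBS and 3.74 in water-Dex, and it changed by -3.17 on water (DESeq2 adjusted p = 7.47e-07) and -1.58 on zinc (DESeq2 adjusted p = 0.0113). This antisense gene had at most 45.2 normalized counts in a liver. If strand was ignored, reads of the shared exons cannot be told apart. Its count then does not bound its part in the counts of Acot4 and Acot3. Between 9.9% and 21.2% of the windows of Acot1 to Acot4 were shared with other genes, among them each other, and Gm49366 overlaps exons of Acot4 and Acot3 on their own strand. Acot6, farther along the cluster and no member of the set, had a mean of 19.9 normalized counts and changed by -1.12 on water (SE 0.422, DESeq2 adjusted p = 0.0383) and -0.63 on zinc (DESeq2 adjusted p = 0.195).

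**Figure D4:**
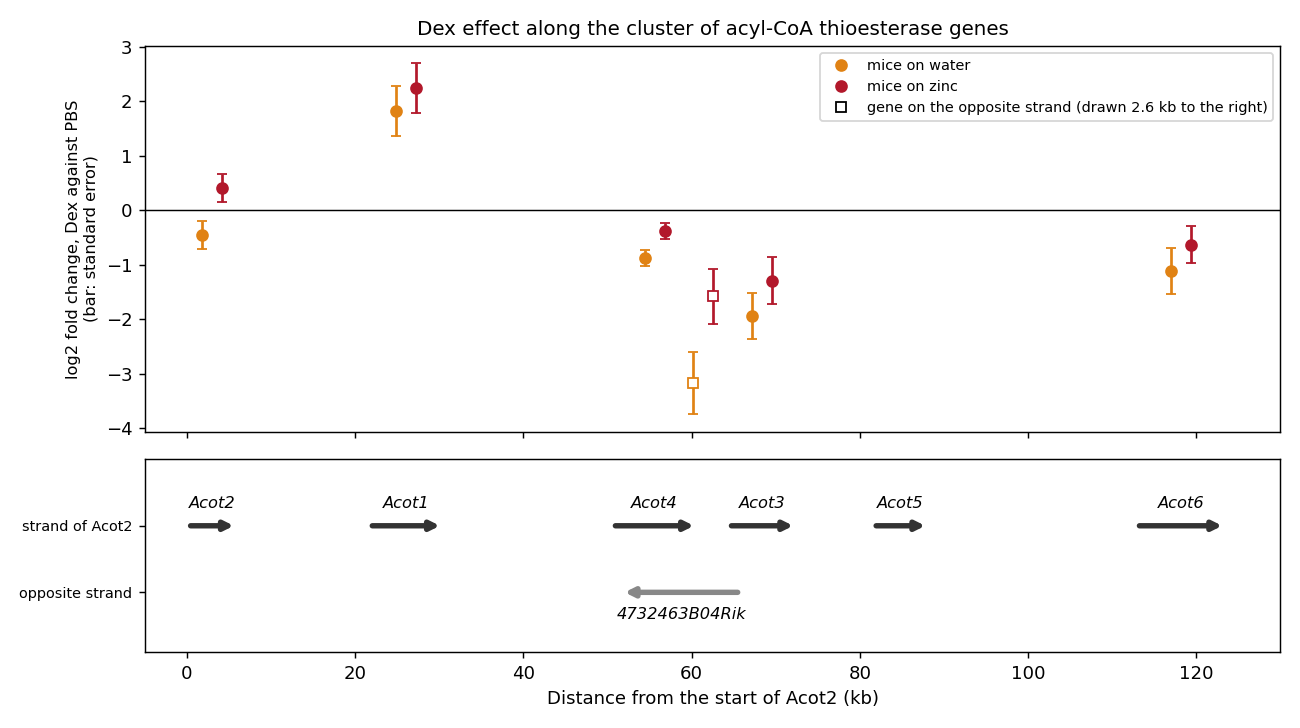
Upper panel, log2 fold change with Dex (standard error as bars) in mice on water (orange) and on zinc (red), drawn near the middle of each gene. Lower panel, genes as arrows along the cluster in kb from the start of Acot2. Acot1 rises while Acot4, Acot3 and the antisense gene between them fall, and Acot5, with a mean of 0.739 normalized counts, has no estimate.

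Of the 5 other PPAR-alpha targets and regulators, Pdk4, the kinase that shuts off pyruvate dehydrogenase, was called with Dex on zinc. It had 1006, 174 and 132 normalized counts in water-PBS and 150, 76.1 and 127 in zinc-PBS, and with Dex 397, 1566 and 473 on water and 818, 1199 and 483 on zinc (chr6:5483351-5496309, minus strand). Water-PBS replicate 1 stood among the Dex-injected livers, and the other 5 PBS-injected livers lay below all 6 of them. On water the log2 fold change was 0.89 (-0.73 to 2.51, DESeq2 adjusted p = 0.516), and without water-PBS replicate 1 it was 2.41 (SE 0.665, DESeq2 adjusted p = 0.00258). On zinc it was 2.83 (SE 0.829, DESeq2 adjusted p = 0.0052), a 7.09-fold rise that narrowly missed the threshold without zinc-Dex replicate 2 (2.47, DESeq2 adjusted p = 0.0547). The same water-PBS liver also had the highest Acot1, Fabp1, Ehhadh and Acsl1 of its group. The pantetheinase Vnn1, the transcription factor Creb3l3, Fabp1 and the fatty aldehyde dehydrogenase Aldh3a2 did not pass in either comparison, with log2 fold changes between -0.17 and 0.34. Vnn1 passed on zinc without zinc-PBS replicate 3, at 0.73 (DESeq2 adjusted p = 0.00524).

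**Figure D5:**
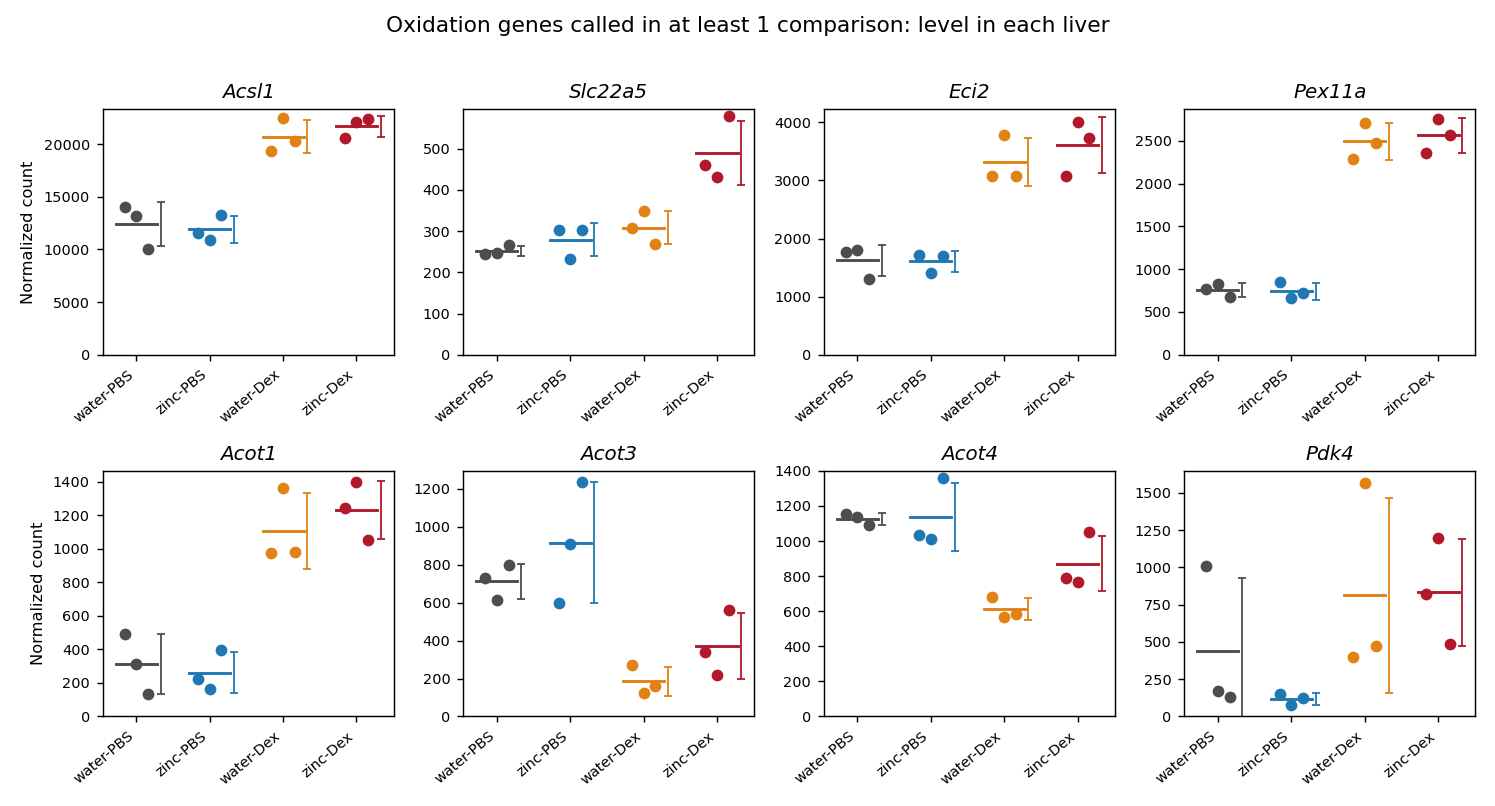
Normalized counts of the 8 oxidation genes called in at least 1 comparison, with a point per liver, the group mean as a line and the SD as a bar, cut at 0 for Pdk4 in water-PBS. The Dex-injected livers lie above the PBS-injected ones for Acsl1, Eci2, Pex11a and Acot1, Slc22a5 stands out in zinc-Dex, and the single high water-PBS liver of Pdk4 is at 1006.

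Promoter windows of 300 bases, from 250 before to 50 after the RefSeq start, were given for 32 of the 37 genes, 36 windows in all. An exact AGGTCA on either strand was in 8 of the 36 (22.2%), those of Acadm, Acadvl, Acot3, Acot4, Cpt1a, Creb3l3 and Fabp1, beside 16.3% of all 32851 windows. The 8 include 2 overlapping windows of Acot3 that hold the same site. An exact AGAACA was in 4 (11.1%), those of Acot1, Creb3l3, Fabp1 and Hadh, beside 19.0%. Pairs of AGGTCA with 1 base between them and at most 2 mismatches, the arrangement that PPAR-alpha with its partner binds, were in 4 (11.1%), those of Acot4, Creb3l3, Etfa and Fabp1, beside 3.86%, and such a pair can hold an exact half-site already counted. Of the genes with a pair, Acot4 fell with Dex on water, and Creb3l3, Etfa and Fabp1 did not pass there. On zinc Acot4 fell (-0.38, DESeq2 adjusted p = 0.0443) and Etfa rose (0.19, DESeq2 adjusted p = 0.0249), both lost on leaving out single livers. Creb3l3 and Fabp1 did not pass on zinc.

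The effect of zinc was compared next, in comparisons that share livers with those of Dex. In PBS-injected mice none of the 37 was called and none passed the adjusted p, with DESeq2 and likewise with edgeR, while 4 had an unadjusted DESeq2 p under 0.05. The background was 0.138% of 12307 genes called and 0.341% past the adjusted p. Point estimates leaned downward, with 6 of 37 above 0 and a median of -0.10 beside -0.001 over all genes. The 37 estimates are not separate observations, since many genes were lowest in the same liver. Within their groups zinc-PBS replicate 2 was lowest for 29 genes and water-PBS replicate 3 for 28. The part of single livers in this downward lean was not tested. The smallest p belonged to Acaa1b, with 5010, 5288 and 5407 normalized counts in water-PBS and 4747, 4196 and 4166 in zinc-PBS and a log2 fold change of -0.26 (-0.46 to -0.07, DESeq2 adjusted p = 0.473). Pdk4 showed the largest difference, -1.90 (-3.52 to -0.27, DESeq2 adjusted p = 0.685), which became -0.38 without water-PBS replicate 1.

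In Dex-injected mice zinc raised 3 of the 37 genes by the adjusted p and none past the fold threshold, beside 1.35% past the adjusted p and 0.469% called among 12786 genes. The 4 cholangiocyte markers summed to 556 to 787 normalized counts in water-Dex and 918 to 1134 in zinc-Dex, and their part in these differences was not tested. With edgeR 1 gene passed the adjusted p and none was called, and 5 had an unadjusted DESeq2 p under 0.05. Slc22a5 rose by 0.67 (0.38 to 0.97, DESeq2 adjusted p = 0.00216), and the 3 zinc-Dex livers (461, 432 and 579) lay above the 3 water-Dex livers (308, 349 and 268). Acot4 rose by 0.51 (0.22 to 0.80, DESeq2 adjusted p = 0.0412), from 682, 567 and 585 to 792, 769 and 1054. Cpt1a rose by 0.47 (0.21 to 0.73, DESeq2 adjusted p = 0.0352), from 4559, 5392 and 4503 normalized counts in water-Dex to 5574, 6481 and 7938 in zinc-Dex. None of the 3 pairs of groups overlapped. Without water-Dex replicate 3 none of the 3 genes passed (adjusted p 0.0648 for Slc22a5, 0.259 for Cpt1a and 0.241 for Acot4), and without zinc-Dex replicate 3 Slc22a5 alone did. Acot4 also failed to pass without water-Dex replicate 2 (0.203), and Cpt1a without water-Dex replicate 1 (0.19).

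Zinc and Dex together, set against the control, called 5 genes higher (Acsl1, Slc22a5, Eci2, Pex11a and Acot1) and none lower with DESeq2, beside 3.69% higher and 3.55% lower among 21401 genes, while edgeR called 4 of these higher, without Acsl1, and Acot3 lower, and 16 of the 37 genes had an unadjusted DESeq2 p under 0.05. By the adjusted p 11 genes (29.7%) were higher and 2 (5.41%) lower, beside 8.13% and 6.70% over all genes. This background took in more genes of low abundance, since 21401 were tested against 14221 and 15657 with Dex. With the filter of 10 counts in at least 3 libraries, 1886 of 13250 genes were higher by the adjusted p and 1679 lower. Of those 13250, 791 were called higher and 831 lower. The 2 oxidation genes that were lower were Crot (-0.55, DESeq2 adjusted p = 0.0234) and Acaa1b (-0.29, DESeq2 adjusted p = 0.0286). All 5 entry genes were among the 11, with Acadl, Acadm and Decr2 beside the called genes. Acadl (0.23, DESeq2 adjusted p = 0.0499) did not pass without any 1 of the 3 water-PBS livers or zinc-Dex replicate 1 or 3 (0.0536 to 0.211), and Decr2 (0.30) not without water-PBS replicate 1 (0.0835) or zinc-Dex replicate 3 (0.109). Cpt1a stood at 0.44 (0.18 to 0.70, DESeq2 adjusted p = 0.00818), a value lost without zinc-Dex replicate 3 (0.30, adjusted p = 0.0807). Slc22a5 reached 0.96 (0.67 to 1.26, DESeq2 adjusted p = 7.56e-09), and its 3 zinc-Dex livers lay above all 3 controls. Acsl1 stood at 0.80 (0.56 to 1.04) close to the fold threshold and fell below it without water-PBS replicate 3 (0.67) or zinc-Dex replicate 2 (0.79) or 3 (0.78). Acot3 had -0.93 and did not pass, but did without zinc-Dex replicate 3 (-1.35, DESeq2 adjusted p = 0.00984). Pdk4 had 0.93 and did not pass, but did without water-PBS replicate 1 (2.44, DESeq2 adjusted p = 0.00214). Fabp1 was lower by the adjusted p without water-PBS replicate 3 (-0.60, DESeq2 adjusted p = 0.00617), Bdh1 higher without water-PBS replicate 2 (0.39, 0.0484) or zinc-Dex replicate 1 (0.43, 0.00572), and Acot4 lower without zinc-Dex replicate 3 (-0.53, 0.0018) and with edgeR (-0.38, 0.0439). Crot did not pass without water-PBS replicate 1 (0.0507) or 2 (0.0782), and Acaa1b not without water-PBS replicate 2 (0.0821) or 3 (0.0888) or zinc-Dex replicate 2 (0.116).

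The interaction term tested whether the Dex effect differed between mice on zinc and on water. None of the 37 genes was called or passed the adjusted p with DESeq2 or with edgeR, and 3 had an unadjusted DESeq2 p under 0.05. Those 3 were Acot4 (0.50, interval 0.10 to 0.91), Slc22a5 (0.52, 0.10 to 0.94) and Acot2 (0.86, 0.16 to 1.57), each with an adjusted p of 1.0. Of all 26185 genes tested 0.0191% were called and 0.0229% passed the adjusted p. The larger number of genes past the threshold on zinc was therefore not shown to be a difference in the Dex effect. Point estimates of the interaction were above 0 for 30 of the 37 genes, with a median of 0.12 beside 0.0 over all genes. They share the PBS-injected livers with the zinc comparison above, and zinc-PBS replicate 2 held the lowest level of its group for 29 genes. The 37 estimates are thus not separate observations, and the part of single livers in this lean was not tested. The interval of the interaction ran from -0.27 to 0.39 for Pex11a and from -0.27 to 0.54 for Eci2. It ran from -0.84 to 1.69 for Acot1 and from -0.36 to 4.23 for Pdk4. Differences within these bounds were not excluded.

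Other genes of the pathway were taken from 4 lists with 66 genes in all. In mice on water 10 of the 62 with an adjusted p were called higher and 2 lower, and on zinc 14 of 64 higher and 0 lower. By the adjusted p alone 17 were higher and 7 lower on water, and 22 higher and 5 lower on zinc. Over all genes tested, 4.89% on water and 5.0% on zinc were called higher, and 4.79% and 4.68% lower. By the adjusted p alone the background was 11.7% higher and 9.91% lower on water, and 11% and 9.08% on zinc. The 29 further oxidation and ketone body genes had 1 called gene in each comparison. By the adjusted p alone, 4 of them were higher and 5 lower on water, and 5 higher and 3 lower on zinc. Among the 12 regulators of oxidation 5 were called higher on water and 6 on zinc, with medians of 0.53 and 0.74, and among the 14 other PPAR-alpha targets 4 and 6. Lpin1, a phosphatidate phosphatase that also acts as a partner of PPAR-alpha, rose most, with 2421, 2825 and 741 normalized counts in water-PBS and 19218, 19281 and 17761 in water-Dex. Its log2 fold change was 3.23 on water (SE 0.532, DESeq2 adjusted p = 2.65e-08) and 3.14 on zinc (SE 0.532, DESeq2 adjusted p = 7.71e-08). Ppard, the relative of PPAR-alpha, rose by 2.13 and 1.70, the monocarboxylate transporter Slc16a6 by 1.37 on water (DESeq2 adjusted p = 4.16e-07), and Angptl4, an inhibitor of lipoprotein lipase, by 1.64 on zinc (DESeq2 adjusted p = 0.0044). The 2 that fell on water were the lipid droplet protein Plin2 (-1.43, DESeq2 adjusted p = 1.32e-09) and the acyl-CoA synthetase Acsl3 (-1.03, DESeq2 adjusted p = 1.31e-08).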

How the data were processed

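Stranded libraries of liver RNA were prepared from 12 samples and sequenced as single-end reads. Per the study's methods and the labels, the authors aligned reads to mm10 with HISAT2 2.0.4, counted them per gene with featureCounts leaving out reads that map to several places, and deposited raw counts for 54838 genes. Which annotation release was used, and whether counting took strand into account, is not given in the sources used here. Library totals of 9091152 to 12303527 counts set the precision for genes of low abundance.

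The main test was the Wald test of DESeq2 1.42.0 in R 4.3.3 on the counts of all 12 libraries, with a coefficient for each group and log2 fold changes that were not shrunk. P-values were adjusted by Benjamini and Hochberg over all genes tested. Calls needed an adjusted p under 0.05 and a log2 fold change over 0.8 in size. Alternatives were edgeR 4.0.16 (quasi-likelihood test), TMM factors, a filter of 10 counts in at least 3 libraries, a replicate block, fits on the compared libraries alone, and leaving out each library. The labels number 3 replicates per group but do not say that each came from its own mouse, so p-values measure the spread between these samples. Same-numbered libraries did not deviate together, since 1 of 18 pairs had a correlation over 0.1 (range -0.22 to 0.227), so the numbers were not taken as pairs. The code was tested on simulated counts.

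The genes and lists were chosen with earlier results of these data known. All 37 genes are named, with values per liver for those called in any of the 6 comparisons and for the most abundant gene of each role without one. Other pathway genes are named up to the 3 largest increases and decreases among those called with Dex. Crot, Acaa1b and Cpt1a were given values per liver after their results were seen. Coordinates are GRCm38 (GENCODE M21), and promoters are from RefSeq (GRCm38.p6). Sharing of sequence was counted over 75-base windows of the annotated exons. Of the 37 genes, 13 overlap an exon on the opposite strand.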

Additional observations from a re-analysis of the deposited data

How the results depend on the processing

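With 3 livers per group, small differences depended on single livers. Genes called with Dex numbered 5 on water (5 to 7 leaving out 1 liver each) and 7 on zinc (5 to 7), and by the adjusted p alone 7 on water (6 to 8) and 17 on zinc (10 to 14, and 15 with edgeR, 13 with the replicate block and 13 with the compared libraries alone). For zinc in Dex-injected mice 3 genes passed the adjusted p, 1 with edgeR and 0 to 3 leaving out 1 liver each. For zinc and Dex together 5 were called (4 to 6). With the replicate block, which changed no count by more than 1.5 times, 5 genes were called with Dex on water, 7 on zinc, 6 with zinc and Dex together, 0 with zinc in either setting and 0 for the interaction, and 6 on water, 13 on zinc, 0 with zinc in PBS-injected and 2 in Dex-injected mice passed the adjusted p. No fold change that passed reversed under any alternative. Of the single gene values under alternatives, 2536 kept their side of the threshold, 75 lost it and 16 gained it. Among all genes called for zinc in Dex-injected mice 65.0% were higher with DESeq2 and 52.4% with edgeR.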
